A study of Mus musculus with 6 samples.

Results

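Synaptotagmins and the genes of the SNARE machinery were compared between fluorescent cells sorted from Sip1 (Zeb2) knockout and wild-type mouse forebrain. The genes were chosen by symbol alone: numbered Syt, Stx, Vamp, Stxbp, Cplx and Rims genes, and Snap23, Snap25, Snap29, Snap47 and Snap91. This took in 56 of the 36291 gene rows, made up of 17 synaptotagmins, 15 syntaxins, 6 VAMPs, 5 SNAP genes, 5 Stxbp genes, 4 complexins and 4 RIMs. Of the 56, 46 had enough counts to be tested, and 10 did not.

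Neurons release transmitter, and all cells deliver membrane, by fusing vesicles with a target membrane. A v-SNARE on the vesicle (a VAMP) zips together with t-SNAREs on the target (a syntaxin and a SNAP protein), syntaxin-binding proteins hold and guide the syntaxin, complexins clamp the assembled complex, synaptotagmins carry C2 domains that in many members bind calcium and trigger fusion, and RIM proteins organize the active zone where synaptic vesicles dock. Migrating interneurons have few mature synapses and use much of the same machinery for membrane addition, growth cone extension and secretion.

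The KO group consisted of 3 libraries labelled as Sip1 knockout under the Nkx2-1 iCre driver, and the WT group of 3 libraries labelled wild type. Both groups were eGFP-positive cells targeted by Nkx2-1 iCre, sorted from the telencephalon of Swiss embryos at E14.5, so the cells share the driver and the reporter and stand for the Nkx2-1 lineage rather than for 1 cell type. Each library carries a number, K77, K79 or K80, with 1 KO and 1 WT library per number. The labels do not say what the number stands for, how many embryos went into a library or which part of the gene was deleted.

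Reads assigned to genes totalled 8323531 to 11069437 per library. Zeb2 had 2856, 2759 and 3391 counts in KO K77, K79 and K80, against 6468, 5350 and 8094 in the WT libraries of the same numbers (log2 fold change -1.11, SE 0.138, edgeR adjusted p = 0.00116). WT K79 stood apart in sex-linked transcripts, with 2506 CPM of Xist against 1.28 to 2.54 CPM in the other 5 libraries, and 0 counts of the Y-linked Eif2s3y against 823 to 1276. None of the 56 genes lies on X or Y (0 by the RefSeq gene table), and counts of calls are given with and without that library. The lineage markers Lhx6, Gad1, Gad2, Dlx1 and Dlx2 were present in every library, and the list of 10 markers of GABAergic cells of the medial ganglionic eminence summed to 6035 to 6969.7 CPM in KO and 5171 to 5860.4 CPM in WT, with Nkx2-1, Gad2 and Sox6 higher and Dlx5 lower. The 6 oligodendrocyte precursor markers summed to 50.9 to 59.3 CPM in KO against 126 to 148 CPM in WT, with 5 of the 6 lower in KO by edgeR. Olig2, at 38.6 ± 1.96 CPM in KO and 51.0 ± 8.60 CPM in WT, was not called by edgeR (adjusted p = 0.0763) but was called lower by DESeq2 (0.0415) and with the replicate block (0.0148). For the 11 pan-neuronal markers the sums were 6517 to 6897 CPM in KO and 6708 to 7977 CPM in WT, with Gap43 higher (0.60) and Rbfox3 lower (-0.46) in log2 fold change, Gap43 losing its call without KO K79, KO K80, WT K77 or WT K80. The 8 cortical glutamatergic markers summed to 216 to 287 CPM in KO and 199 to 428 CPM in WT, and the 10 progenitor markers to 1651 to 2037 CPM in KO and 1901 to 2422 CPM in WT, with 0 called in either list by edgeR. At an unadjusted p under 0.05 those lists held 1 and 4 genes, and DESeq2 called 0 and 1. The replicate block further called Lhx8, Nefl, Snhg11 and Slc1a3 higher and Dcx, Vim, Top2a and Hbb-y lower among the markers. Of these, DESeq2 also called Dcx (adjusted p = 0.00625) and Vim (0.0305) lower. Endothelial and pericyte markers summed to 24.0 to 34.5 CPM in KO and 24.97 to 43.8 CPM in WT, erythroid markers to 10.1 to 23.6 CPM in KO and 17.9 to 30.9 CPM in WT with Hba-a1 and Hba-a2 at 0, and microglial markers to 3.35 to 4.45 CPM in KO and 3.46 to 4.27 CPM in WT. The part of these cell type differences in the results below was not tested, and in bulk samples fewer cells of a type and less RNA per cell cannot be told apart.

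Of the 46 genes tested, 7 rose in KO cells, 0 fell and 39 were not called (edgeR quasi-likelihood test, Benjamini-Hochberg adjusted p under 0.05 over 13835 genes). The 7 were Syt6, Rims4, Stxbp6, Syt5, Snap91, Rims1 and Stx3. They make up 15.2% of the tested members, and among all genes tested 3.64% were called higher and 2.62% lower, or 6.27% in all. At an unadjusted p under 0.05, 15 members were higher and 2 lower, against 9.96% and 8.39% of all genes tested. DESeq2 called 9 higher and 1 lower, against 4.03% and 2.81% of all genes tested (6.84% in all), and limma voom 7 higher and 0 lower, against 3.68% and 2.62% (6.3% in all). With the K number as a replicate block, 12 rose and 1 fell, against 6.13% and 4.45% of all genes tested (10.6% in all). Without WT K79, 8 rose and 1 fell, in a fit that called 1044 genes in all, against 867 with every library. Without WT K77 or KO K80, in fits that called 528 and 445 genes, 4 members rose, namely Syt6, Rims4, Stxbp6 and Syt5. The authors' deposited table called 11 members higher and 1 lower, against 8.1% of all genes tested here called in either direction.

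Levels in all 3 KO libraries lay above all 3 WT libraries for 12 of the 46 members and below them for 2, where 11.8% and 11.4% of all tested genes did so. The median log2 fold change was 0.10 over the 46 members and -0.01 over all tested genes, and 31 members (67.4%) lay above 0, against 48.5% of all tested genes. Among the 39 members not called, 30 had a 95% interval of the log2 fold change that lay wholly between -0.5 and 0.5.

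**Figure D1:**
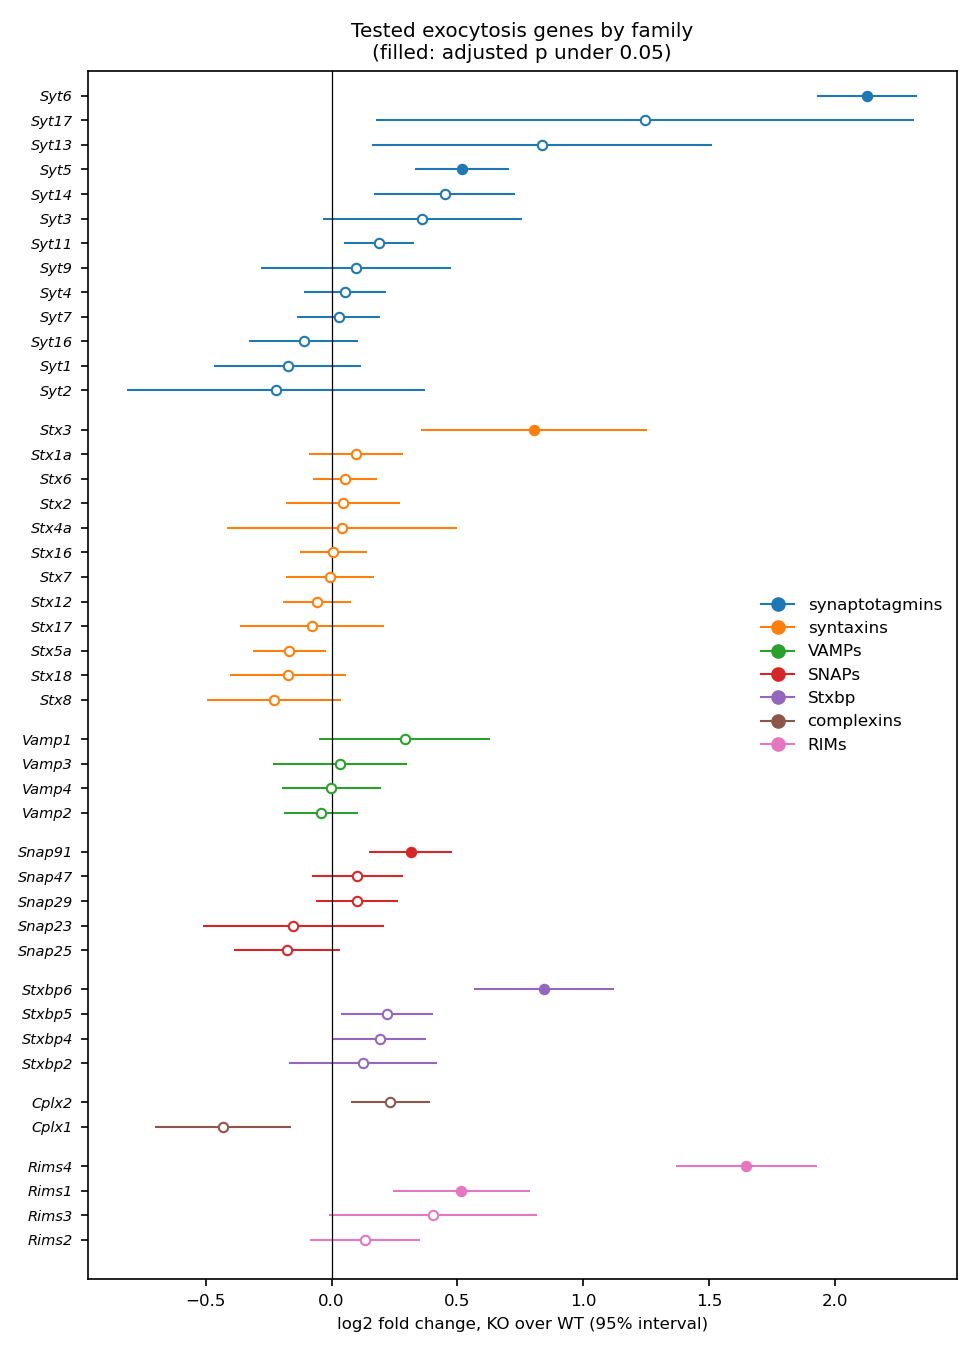
Log2 fold change of KO over WT (x axis) for 44 of the 46 tested genes, grouped by family, with 95% intervals from the edgeR fit. Filled points passed an adjusted p of 0.05. Syt6 (2.13) and Rims4 (1.65) stand furthest to the right, while most syntaxins and VAMPs straddle 0.

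Synaptotagmins are the calcium sensors and their relatives, and Syt6 changed the most of the 46. Syt6 belongs to a group, Syt3 and Syt10 among it, whose members pair through cysteines near the amino terminus, and is best known from acrosomal exocytosis in sperm. It had 223, 219.8 and 231 CPM in KO K77, K79 and K80, against 45.9, 48.6 and 59.4 CPM in WT K77, K79 and K80. The KO libraries lay close together and far above every WT library. The mean was 224.6 ± 5.64 CPM in KO and 51.3 ± 7.16 CPM in WT (SD, n = 3 each), a 4.37-fold rise (log2 fold change 2.13, SE 0.0896, edgeR adjusted p = 3.51e-06), and without any 1 library the adjusted p stayed at or under 0.00012. Syt3, of the same group, was not called, at 11.8 ± 1.02 CPM in KO and 9.20 ± 2.06 CPM in WT (log2 fold change 0.36, edgeR adjusted p = 0.323). Syt10 had 3, 4 and 6 counts in KO and 1, 4 and 2 counts in WT, too few to test. An exon of Syt6 overlaps the gene Atg4a-ps on the opposite strand in the GENCODE M21 annotation. That gene had 7 to 12 counts in KO and 8 to 11 counts in WT, and whether reads were counted by strand is unknown here.

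Promoter sequence was read for the called genes because Zeb2 is a zinc finger protein that binds CACCT sites and CACCTG boxes. RefSeq windows of 300 bases on GRCm38.p6, of which 50 follow the start, were matched by symbol for 42 of the 56 genes and for 5 of the 7 risers (Syt6, Stxbp6, Snap91, Rims1 and Stx3, 7 windows in all). On either strand, CACCTG was in 0 of these 7 windows and in 9 of the 53 windows of all matched members (17.0%), against 20.2% of the 32851 windows in the table. CACCT, which every CACCTG also holds, was in 2 of the 7, in 26 of the 53 (49.1%) and in 51.9% of all windows. The 2 were a window of Syt6 and that of Stx3, shown here over the 250 bases before the start (chr3:103574995-103575244 on the plus strand for Syt6 and chr19:11819404-11819653 on the minus strand for Stx3), 5′ to 3′ on the strand of each gene, with CACCT or its complement AGGTG in capitals.
Syt6: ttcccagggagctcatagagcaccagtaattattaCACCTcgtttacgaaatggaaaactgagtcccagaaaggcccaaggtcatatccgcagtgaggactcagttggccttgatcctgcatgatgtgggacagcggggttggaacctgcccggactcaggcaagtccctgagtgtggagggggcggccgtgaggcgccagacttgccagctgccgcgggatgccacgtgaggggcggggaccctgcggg
Stx3: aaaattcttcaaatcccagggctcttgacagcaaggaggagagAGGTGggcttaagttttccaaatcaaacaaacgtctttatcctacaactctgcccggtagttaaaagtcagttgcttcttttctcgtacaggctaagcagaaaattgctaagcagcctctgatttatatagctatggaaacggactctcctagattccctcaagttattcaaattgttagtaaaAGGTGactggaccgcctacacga
In Syt6 the match began at position -215 from the start, and the other 2 windows of Syt6 held none. Of those, the window at chr3:103575032-103575281 overlaps the one shown and begins inside that match. The 7 windows are thus not all separate sequence. In Stx3 the matches began at -207 and -23. These are letter matches and say nothing of binding.

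Syt5, a vesicle calcium sensor, also rose. Its level was 92.8, 90.3 and 103 CPM in KO K77, K79 and K80, against 60.8, 72.0 and 67.0 CPM in the WT libraries of the same numbers. The groups did not overlap, and the rise was 1.43-fold (log2 fold change 0.52, SE 0.0828, edgeR adjusted p = 0.0046), with a highest adjusted p of 0.0322 when a library was left out. The other 11 tested synaptotagmins were not called. Syt1, the fast sensor of synaptic vesicle release, stood at 375 ± 52.4 CPM in KO and 423 ± 76.5 CPM in WT, with a 95% interval of the log2 fold change from -0.47 to 0.12. Syt11, which does not bind calcium, was at 482 ± 27.3 CPM in KO and 423 ± 15.6 CPM in WT (log2 fold change 0.19, edgeR adjusted p = 0.121). Syt4 (0.05), Syt7 (0.03), Syt16 (-0.11) and Syt9 (0.10) had log2 fold changes near 0.

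Several synaptotagmins with fewer reads had larger but less certain differences. Syt13, another member that does not bind calcium, was at 13.0, 23.4 and 19.6 CPM in KO K77, K79 and K80, against 6.54, 16.0 and 8.73 CPM in WT. The groups overlapped through WT K79, although KO was higher within each K number. Syt13 was not called (log2 fold change 0.84, SE 0.303, edgeR adjusted p = 0.159), but was with the replicate block (0.00459), by DESeq2 (0.0337), with no filter and without WT K79 (0.0145). Syt14 was at 31.6 ± 3.32 CPM in KO and 23.1 ± 3.47 CPM in WT without overlap (log2 fold change 0.45, edgeR adjusted p = 0.0665), and was called with the block (0.0482), by DESeq2 (0.0472), with no filter and without WT K80 (0.024). Syt17 rested on 16, 48 and 40 counts in KO and 13, 26 and 5 in WT (log2 fold change 1.25, edgeR adjusted p = 0.187). The authors' deposited table called Syt13 (0.84), Syt14 (0.45) and Syt17 (1.23) higher on the log2 scale.

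Per kilobase of exon, Syt6 moved up the order of synaptotagmin levels. Using GENCODE M21 exon lengths, which may differ from the authors' gene models, the KO order was Syt11 (92.6 ± 5.25 CPM per kb), Syt1 (44.9 ± 6.29), Syt5 (40.1 ± 2.86), Syt6 (38.5 ± 0.967) and Syt4 (24.6 ± 1.16). Over the KO libraries the ranges of Syt1 (37.7 to 49.1), Syt5 (37.9 to 43.3) and Syt6 (37.7 to 39.6) overlapped. Syt1 was above Syt6 in KO K79 and KO K80 and below it in KO K77. In WT the order was Syt11 (81.2 ± 3.00 CPM per kb), Syt1 (50.7 ± 9.17), Syt5 (28.0 ± 2.34), Syt4 (23.7 ± 1.76), Syt7 (9.58 ± 0.406), Syt16 (8.84 ± 0.966) and Syt6 (8.80 ± 1.23), the last 3 not told apart by their spread. Syt6 made up 14.1 ± 0.831% of the summed synaptotagmin level per kb in KO and 3.95 ± 0.412% in WT (SD, n = 3 each). The share of Syt1 was 16.3 ± 1.33% in KO and 22.8 ± 3.40% in WT. Shares add to a whole, so a rise in 1 member lowers the others. The unscaled family sum was 1383, 1539 and 1581 CPM in KO and 1187, 1261 and 1353 CPM in WT, of which the difference in Syt6 is the larger part.

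**Figure D2:**
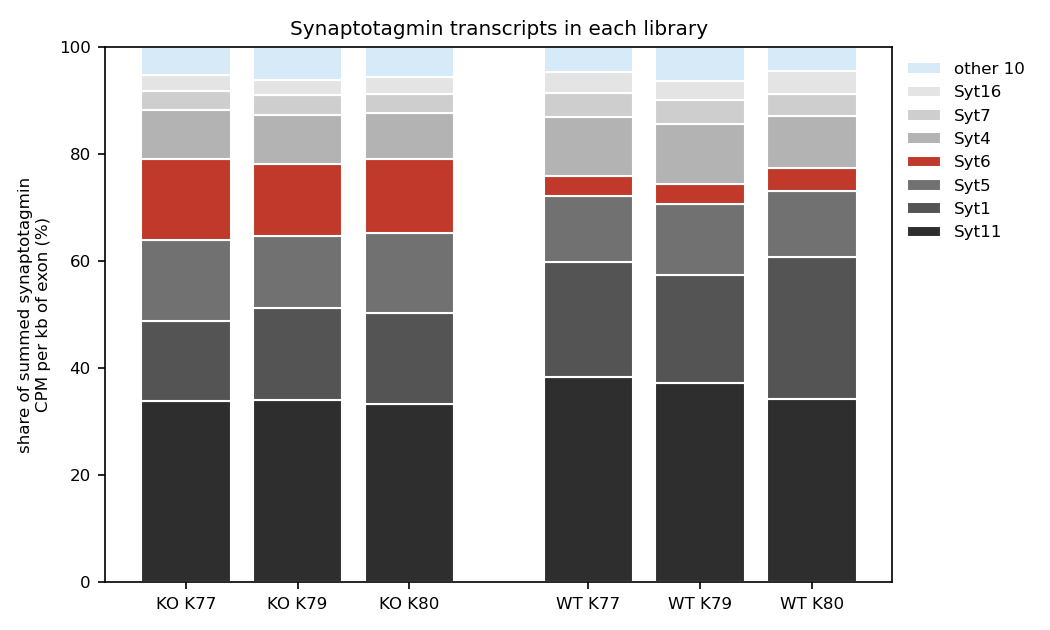
Share of each synaptotagmin (y axis, percent of the summed CPM per kb of exon) in each of the 6 libraries (x axis), with Syt6 in red. Syt6 takes 13.5 to 15.0% in the KO libraries and 3.67 to 4.43% in the WT libraries.

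RIM genes were the family with the highest median log2 fold change, 0.46 over 4 members, and 2 of the 4 rose. Rims4 encodes a short RIM with a single C2 domain, without the Rab-binding part of the long forms. Its level was 96.9, 114 and 97.8 CPM in KO K77, K79 and K80, against 26.3, 38.1 and 34.0 CPM in WT. Every KO library was well over the highest WT library. Rims4 averaged 103 ± 9.83 CPM in KO and 32.8 ± 6.00 CPM in WT (SD, n = 3 each), a 3.13-fold rise (log2 fold change 1.65, SE 0.126, edgeR adjusted p = 8.69e-05, at most 0.0014 without any 1 library).

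Rims1, the long scaffold that links Rab3 on vesicles to calcium channels, had 45.6, 48.8 and 50.9 CPM in KO and 26.9, 36.3 and 38.3 CPM in WT. The groups did not overlap, and WT K77 was the lowest of the WT libraries. The rise was 1.43-fold (log2 fold change 0.51, SE 0.122, edgeR adjusted p = 0.0352), and the call was lost without KO K77, KO K79, KO K80 or WT K77 (adjusted p 0.0526 to 0.156). Rims3, a short form like Rims4, had 46.7, 72.9 and 64.0 CPM in KO and 40.2, 59.5 and 39.3 CPM in WT, overlapping but higher in KO within each K number (log2 fold change 0.40, edgeR adjusted p = 0.284, with the replicate block 0.0252). Rims2 stood at 67.9 ± 5.49 CPM in KO and 61.8 ± 7.39 CPM in WT (log2 fold change 0.13, 95% interval -0.09 to 0.35).

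**Figure D3:**
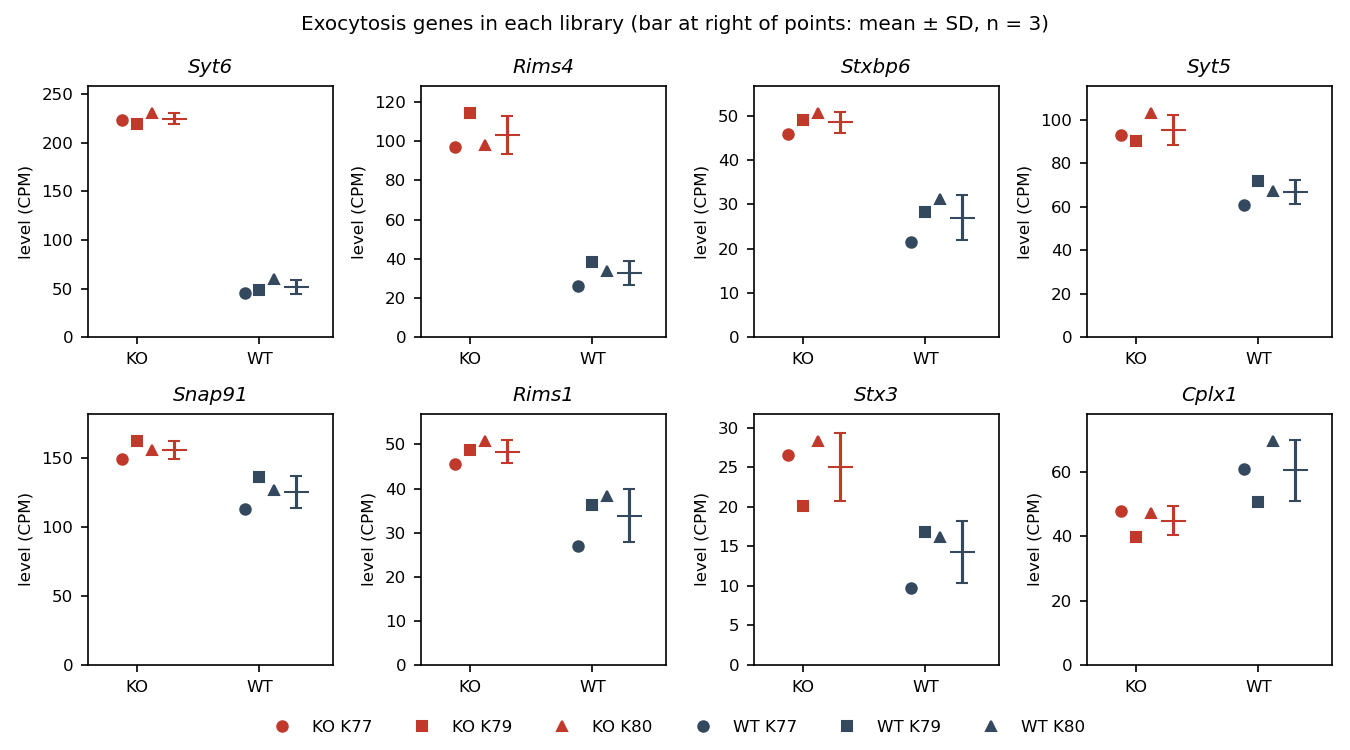
Level in each library (y axis, CPM from 0) of the 7 called genes and of Cplx1, KO at the left and WT at the right of each panel. Marker shapes give the K number, and the bar beside the points is the mean ± SD of 3 libraries. KO and WT do not overlap in any of the 8 panels, and Cplx1 alone is lower in KO.

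Among the Stxbp genes 1 of 5 rose. Stxbp6, or amisyn, carries a VAMP-like coil that can enter SNARE complexes with syntaxin and SNAP-25 and lacks a membrane anchor. Its level was 45.9, 48.9 and 50.6 CPM in KO K77, K79 and K80, against 21.4, 28.3 and 31.2 CPM in WT. The 2 groups were far apart relative to their spread. The rise was 1.79-fold (log2 fold change 0.84, SE 0.125, edgeR adjusted p = 0.00306, at most 0.0231 without any 1 library). Stxbp5, or tomosyn, was at 82.8 ± 4.13 CPM in KO and 71.1 ± 6.91 CPM in WT (log2 fold change 0.22, edgeR adjusted p = 0.174, with the replicate block 0.0491). Stxbp4 (0.19) and Stxbp2 (0.13) were not called.

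Of the 13 syntaxins tested 1 rose, and the family median was -0.01. Stx3, a t-SNARE known from apical membranes of epithelia and from growing neurites, had 26.6, 20.1 and 28.4 CPM in KO K77, K79 and K80, against 9.70, 16.8 and 16.2 CPM in WT. The lowest KO library, K79, was only slightly above the highest WT library, also K79. The log2 fold change was 0.80 (SE 0.201, edgeR adjusted p = 0.0437), and within K77, K79 and K80 it was 1.45, 0.26 and 0.81. The call was lost without KO K77, KO K80, WT K77 or WT K80 (adjusted p 0.0585 to 0.195). Among those not called, Stx1a, a t-SNARE of synaptic vesicle fusion, was at 42.2 ± 2.46 CPM in KO and 39.5 ± 2.51 CPM in WT (95% interval of the log2 fold change -0.09 to 0.29). The syntaxins with the most reads, unscaled for length, were Stx12, an endosomal syntaxin, at 211 ± 4.52 CPM in KO and 219 ± 13.5 CPM in WT (log2 fold change -0.06, 95% interval -0.19 to 0.08), and Stx7, of late endosomes, at 201 ± 5.63 CPM in KO and 202 ± 22.8 CPM in WT (-0.01, -0.18 to 0.17). Stx5a, of the Golgi, lay lower in each KO library, at 89.1 ± 4.70 CPM against 100.0 ± 3.72 CPM in WT, and was not called (log2 fold change -0.17, edgeR adjusted p = 0.193). Other tested syntaxins, Stx2, Stx6, Stx8, Stx16, Stx17 and Stx18 among them, were not called, and Stx18 overlaps Nsg1 on the opposite strand.

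None of the 4 tested VAMPs was called by edgeR, DESeq2 or limma voom, and 0 had an unadjusted p under 0.05. Vamp2, the v-SNARE of synaptic vesicles, stood at 209 ± 9.01 CPM in KO and 215 ± 14.9 CPM in WT (log2 fold change -0.04, 95% interval -0.19 to 0.11). Vamp4, of the trans-Golgi, was at 42.9 ± 2.50 CPM in KO and 43.0 ± 3.63 CPM in WT (95% interval -0.20 to 0.20). Vamp1 (log2 fold change 0.29) and Vamp3 (0.03) were not called either.

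Within the SNAP genes the riser was not a SNARE. Snap91, or AP180, is a clathrin assembly protein that retrieves synaptic vesicle membrane and shares the symbol but not the function. It had 149, 163 and 156 CPM in KO K77, K79 and K80, against 113, 136 and 127 CPM in WT. The groups did not overlap, and the rise was 1.24-fold (log2 fold change 0.31, SE 0.0737, edgeR adjusted p = 0.0338). Without KO K79, KO K80, WT K77 or WT K80 the call was lost (adjusted p 0.0721 to 0.154). Snap25, the neuronal t-SNARE, was at 89.4 ± 6.72 CPM in KO and 101 ± 12.6 CPM in WT (log2 fold change -0.18, 95% interval -0.39 to 0.03). Snap47, with counts that its overlapping neighbour Jmjd4 may affect, was at 206 ± 19.8 CPM in KO and 192 ± 14.2 CPM in WT (log2 fold change 0.10, 95% interval -0.08 to 0.28). Snap29 (0.10) and Snap23 (-0.15) were not called either, and Snap29 overlaps Pi4ka.

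The complexins lay on opposite sides of 0. Cplx1 had 47.9, 39.8 and 47.1 CPM in KO K77, K79 and K80, against 61.0, 50.8 and 69.8 CPM in WT. All KO libraries were below all WT libraries, the nearest pair being KO K77 and WT K79. The log2 fold change was -0.43 (SE 0.121, edgeR adjusted p = 0.0684), not called, but called lower with the replicate block (0.00539), by DESeq2 (0.0201), without WT K79 (0.0133) and in the authors' deposited table (-0.43). Cplx2 had 283, 257 and 250.3 CPM in KO and 241, 212 and 219 CPM in WT, higher in each KO library than in any WT library (log2 fold change 0.23, SE 0.0703, edgeR adjusted p = 0.0908, with the replicate block 0.015).

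**Figure D4:**
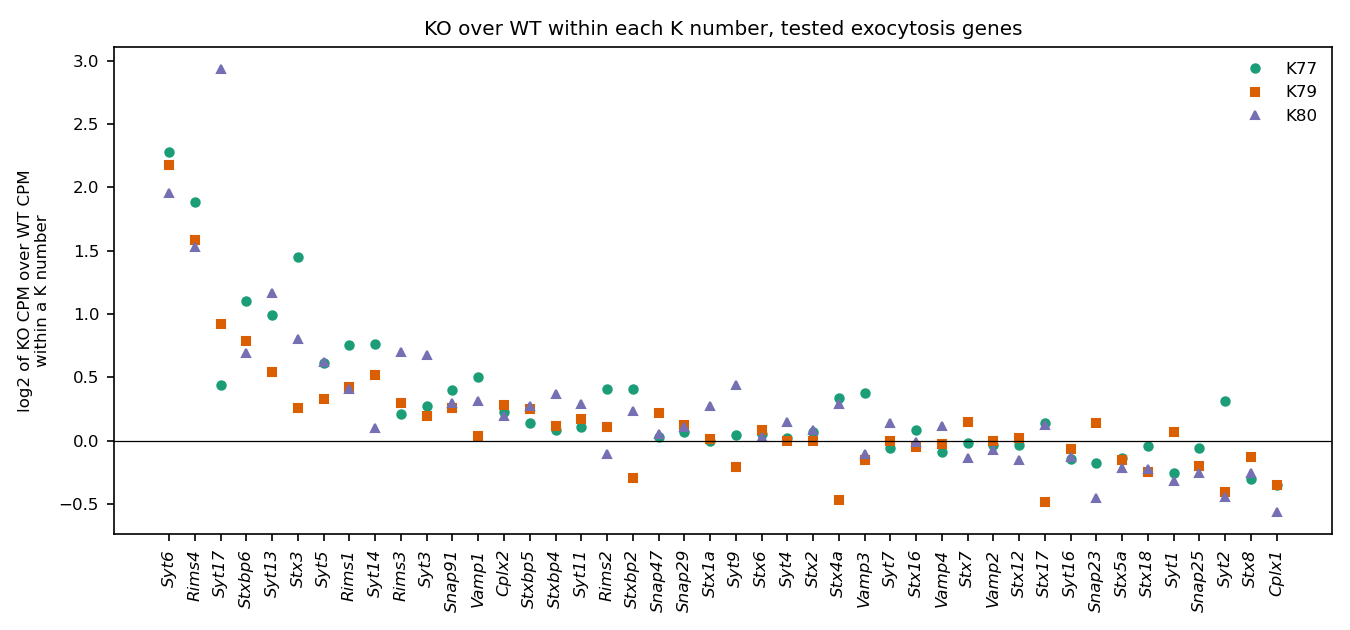
Log2 of KO CPM over WT CPM within K77, K79 and K80 (y axis) for 44 of the 46 tested genes, ordered by fitted fold change (x axis). Over all 46, KO was higher within all 3 numbers for 22 genes (47.8%) and lower within all 3 for 7 (15.2%), against 22.3% and 22.1% of all tested genes. Syt6 lies between 1.96 and 2.28 in the 3 numbers, and Syt17 spreads from 0.44 to 2.93.

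The 10 genes with too few counts to test were Syt8, Syt10, Syt12, Syt15, Stx11, Stx19, Vamp5, Vamp8, Cplx3 and Cplx4. Cplx4 and Syt8 had 0 counts in every library, which allows up to 0.271 to 0.36 CPM in a KO library and 0.284 to 0.326 CPM in a WT library, for counting error only. The highest count among the other 8 was 13, for Vamp8 in WT K79.

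Partner genes of the same process were called in the main fit at shares near those of all tested genes. A list of 101 genes for priming, active zone, vesicle membrane, tethering and other SNAREs held 92 tested genes, of which 3 rose, 3 fell and 86 were not called (3.26% each way, against 3.64% and 2.62% of all tested genes), and with the replicate block 8 rose and 4 fell, against 6.13% and 4.45% of all tested genes in that fit. The block added Rab3b (log2 fold change 0.47, blocked edgeR adjusted p = 0.0344), Erc1 (0.20, 0.0333), Erc2 (0.23, 0.0206), Dnm1 (0.22, 0.0333) and Synj1 (0.21, 0.0316) as higher and Scamp1 (-0.33, 0.0330) as lower. The risers were Sytl5, an X-linked synaptotagmin-like Rab27 effector, at 20.8 ± 3.03 CPM in KO and 7.65 ± 1.76 CPM in WT (log2 fold change 1.43, edgeR adjusted p = 0.00113), Lin7a, a PDZ scaffold, at 70.8 ± 14.8 CPM in KO and 33.9 ± 8.22 CPM in WT (1.06, 0.00769), and the vesicle protein gene Sv2c, at 9.41 ± 2.74 CPM in KO and 4.40 ± 1.26 CPM in WT (1.10, 0.0377). Removing KO K79, KO K80, WT K77 or WT K80 ended the call of Sv2c (adjusted p 0.101 to 0.178).

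The partners that fell were Syn2, Apba1 and Amph. Syn2 encodes synapsin II, which tethers vesicles to the cytoskeleton, and had 39.1, 41.9 and 48.0 CPM in KO K77, K79 and K80, against 81.8, 73.9 and 81.2 CPM in WT. No KO library came near a WT library (log2 fold change -0.87, SE 0.0898, edgeR adjusted p = 0.000414). Its opposite-strand neighbour Timp4 had 5 to 11 counts in KO and 9 to 15 in WT. Apba1, or Mint1, a PDZ adaptor protein of synapses, had 54.95, 65.2 and 59.4 CPM in KO and 91.4, 75.5 and 88.1 CPM in WT, without overlap (log2 fold change -0.50, edgeR adjusted p = 0.00995, and 0.0559 without KO K80). Amph, the endocytic protein amphiphysin, was at 99.1 ± 9.55 CPM in KO and 164 ± 40.0 CPM in WT (-0.72, edgeR adjusted p = 0.0218), not called once KO K77, KO K79, KO K80 or WT K77 was removed (adjusted p 0.0679 to 0.0804). The priming genes Unc13a (0.01) and Unc13b (0.07) and the active zone gene Bsn (-0.01) had log2 fold changes near 0 and were not called.

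**Figure D5:**
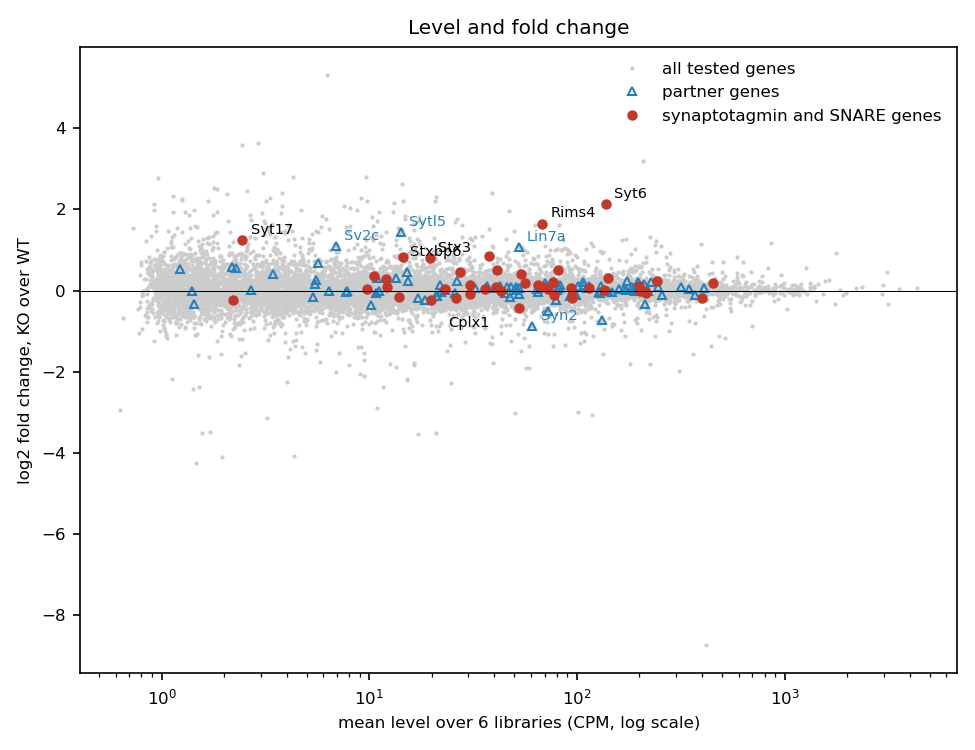
Log2 fold change of KO over WT (y axis) against mean level over the 6 libraries (x axis, CPM, log scale) for all 13835 tested genes in grey, 44 of the 46 tested members in red and the 92 partner genes as blue triangles. Syt6 and Rims4 lie above the other members at their level, and most members and partners lie close to 0.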

How the data were processed

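The 56 genes, the lists and the tests were chosen with earlier results of these data known. Deposited files gave raw read counts per gene for 36291 rows, equal between the authors' table and the 6 library files. Per the submitters' processing notes, build mm9 and the tools DESeq 1.2.2, HTSeq 0.5.3p3 and TopHat 1.2.0 were used, without role or order. The sources used here give neither annotation nor strand setting. Rows naming no gene (19.7 to 21.8% of counts unassigned, 1.94 to 1.99% ambiguous) were left out.

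Counts were tested in R 4.3.3 with edgeR 4.0.16 (TMM, filterByExpr with a minimum count of 10, quasi-likelihood test, Benjamini-Hochberg adjustment over all 13835 genes tested) with 3 KO and 3 WT libraries, whose common biological coefficient of variation was 9.26%. CPM are counts scaled by effective library size. The SE is the log2 fold change over the square root of F. The authors' deposited table gave a log2 fold change and an adjusted p-value per the file headers, its groups called A and B. It was read as KO over WT because all 777 genes called in both it and edgeR had the same sign. Separate embryos are not stated as the origin of the libraries, and p-values cover only the spread among them. By their Xist and Eif2s3y counts, WT K79 was female and every other library male. WT K79 was thus not made from the same material as WT K77 and WT K80. The K79 pair, and with it the replicate block, sets a male KO library against a female WT library. How much of the remaining spread is technical is unknown.

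The main fit left the K number out, and only the replicate block took it to pair libraries. Deviations from the group mean correlated across genes between KO and WT in K77 (0.256), in K79 (0.197) and in K80 (0.175). Between KO and WT libraries of different numbers the correlations were -0.176 to -0.00936. Deviations from a group mean cancel within each gene, so positive values within a number push those between numbers to be negative. The negative values are therefore not a separate result. Blocked values are printed where they change the call of a member or a partner gene. Of the tested members, 2 are counted but not reported here by name or value. Named genes were every called member, the 2 most abundant members of each family, low members as a group, up to 8 called partners each way and Zeb2; other members, other markers, and the partners Unc13a, Unc13b and Bsn were chosen after their values were seen. The tests were tried on simulated counts, drawn independently at the common coefficient of variation and without a K number effect. No result here rests on that trial. Alternatives were RLE size factors, DESeq2 1.42.0, limma voom 3.58.1, other filters and thresholds, the block, sex-linked, erythroid and mitochondrial rows dropped, and each library left out.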

Additional observations from a re-analysis of the deposited data

How the results depend on the processing

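Zeb2, Syt6, Rims4, Stxbp6 and Syt5 kept their direction and their call under each of the 13 alternatives run on fold changes. Over all genes the number changed was 427 at an adjusted p under 0.01 and 1463 with the replicate block, against 867, and 445 to 1044 with a library left out. Members higher in KO numbered 4 at an adjusted p under 0.01 and 12 with the replicate block, against 7, and 4 to 8 with a library left out. Members lower numbered 1 with DESeq2, with no filter, at an adjusted p under 0.1 and with the replicate block, against 0, and 0 to 1 with a library left out; in each case the gene was Cplx1. Partner genes higher numbered 8 with the replicate block, against 3, and 2 to 3 with a library left out, and partners lower 1 to 4. The block also called Syt13, Syt14, Stxbp5, Cplx2 and Rims3, and changed no other member's call. Stx3, Snap91 and Rims1 kept an adjusted p under 0.05 in the other alternatives but lost it in 4 of the 6 fits with a library left out. Of 492 values of members not called, 28 changed sign. With no filter Syt13 and Syt14 were called too. The cause of these shifts was not tested, other than that a library left out leaves fewer samples and a stricter threshold fewer calls. The 10 untested members had at most 13 counts in a library, so differences in them could not be tested at this depth.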
